A study of Mus musculus with 6 samples.

Results

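The noncoding RNAs *Miat*, *Malat1*, *Neat1*, *Snhg11*, *Gas5*, *Rn7sk* and *Rmrp* were followed in mouse craniofacial tissue with and without *Rbfox2*, 7 of the 38553 genes in the table of all samples, found there by gene name. They were chosen for their noncoding class and with earlier results of these data known, so their values in mutants against controls are a description and carry no test. Craniofacial tissue was taken by microdissection at E12.5, and poly(A)+ RNA was sequenced from 3 controls, genotype Rbfox2 flox/flox without Cre, and 3 mutants, genotype Pax3Cre/+:Rbfox2 flox/flox, each an independent biological replicate. Both groups carry the floxed alleles, and the mutants also carry 1 Cre allele at *Pax3*, which the controls lack. Pax3-Cre acts in the neural crest and also in the dorsal neural tube and somites, so the dissected tissue mixes recombined cells with cells that kept *Rbfox2*. In such bulk tissue, fewer cells of a type and less RNA per cell cannot be told apart. Levels are FPKM, the fragments mapped to a gene scaled by its length and by the mapped fragments of the sample, and the read counts behind single values are not known.

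Long noncoding RNAs act without being translated, and several stay in the nucleus. *Malat1* gathers in nuclear speckles, the stores of splicing factors, *Neat1* is the scaffold of paraspeckles, and *Miat* is a neuronal and retinal RNA whose repeats bind the splicing factor SF1. *Gas5* and *Snhg11* are host genes that carry snoRNAs, small RNAs that guide the modification of ribosomal and spliceosomal RNA. *Rn7sk* (7SK) holds the transcription elongation factor P-TEFb in an inactive complex, and *Rmrp* is the RNA subunit of RNase MRP, which processes ribosomal RNA. Both are made by RNA polymerase III without a poly(A) tail, and *Malat1* ends in a triple helix in place of a tail, so their recovery in poly(A)+ libraries need not follow their level in the cell. Where in the cell these RNAs were found was not measured, and spliced *Gas5* is known mainly from the cytoplasm. *Rbfox2* is a splicing factor that binds the RNA hexamer UGCAUG.

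In GENCODE M21, an annotation of GRCm38, *Miat* (ENSMUSG00000097767) lies on the minus strand of chromosome 5 from 112213228 to 112229395. *Malat1* (ENSMUSG00000092341) and *Neat1* (ENSMUSG00000092274) are neighbours on the minus strand of chromosome 19, from 5795690 to 5802672 and from 5824708 to 5845478. These 3 are annotated as lincRNAs, *Gas5* as a processed transcript, *Rn7sk* as misc_RNA, *Rmrp* as a ribozyme and *Snhg11* as protein coding. The sequence TGCATG, the DNA letters of the Rbfox hexamer, and ACTAAC, the core of the branch-point-like repeat of *Miat*, were searched on the sense strand of the longest transcript of each gene. The 7-letter form TACTAAC contains ACTAAC, and neither overlaps TGCATG. The stretch of *Miat* richest in ACTAAC and the surroundings of Rbfox hexamers in the nuclear RNAs are shown, since they set the repeat that marks *Miat* beside the motif of the deleted factor. Capitals mark ACTAAC in the first sequence and TGCATG in the others, with coordinates on GRCm38.
*Miat*, ACTAAC repeats (chr5:112217255-112217494, minus strand): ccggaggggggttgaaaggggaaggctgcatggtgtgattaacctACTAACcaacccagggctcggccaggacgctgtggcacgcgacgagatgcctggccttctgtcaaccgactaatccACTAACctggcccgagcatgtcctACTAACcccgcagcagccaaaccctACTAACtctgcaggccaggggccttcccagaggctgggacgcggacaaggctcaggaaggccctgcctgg
*Miat*, Rbfox hexamer, copy 1 (chr5:112217451-112217480, minus strand): aaaggggaaggcTGCATGgtgtgattaacc
*Miat*, Rbfox hexamer, copy 2 (chr5:112213708-112213737, minus strand): tgtgtgtgtgtgTGCATGagagagtgagag
*Malat1*, Rbfox hexamer, copy 1 (chr19:5801246-5801275, minus strand): cagcagcagcagTGCATGgtgaagatagcc
*Malat1*, Rbfox hexamer, copy 2 (chr19:5798782-5798811, minus strand): gatctgcagtatTGCATGttagggatagat
*Malat1*, Rbfox hexamer, copy 3 (chr19:5797987-5798016, minus strand): catttccaaataTGCATGttgagtttaaat
*Neat1*, Rbfox hexamer, copy 2 (chr19:5838645-5838674, minus strand): tttctttgtagtTGCATGtattatttcttg
*Neat1*, Rbfox hexamer, copy 3 (chr19:5838617-5838646, minus strand): tgtgtgtgtgtgTGCATGcttccactcatc
*Rn7sk*, Rbfox hexamer (chr9:78175310-78175339, minus strand): caaatgaggcgcTGCATGtggcagtctgcc

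The 240 bases of *Miat* held 4 copies of ACTAAC and the first Rbfox hexamer, all in exon 7, the last exon of transcript Miat-205. They also lie within the span of *Gm26953*, a lincRNA gene on the opposite strand, and cover the misc_RNA entry *Gm27627*, which has no value in the table. Over its 9163 bases, *Miat* held 11 copies of ACTAAC and 6 of TACTAAC. Of 38 other long noncoding transcripts within 20% of its length, 57.9% held ACTAAC at least once and 0 held as many copies. TGCATG was commonplace at such lengths, with 2 copies in *Miat*, where 78.9% of these transcripts held as many. *Malat1*, 6983 bases long, held 3 copies of TGCATG and none of ACTAAC, and 35.9% of 117 transcripts of like length held at least 3. *Neat1*, at 20771 bases, held 9 copies of TGCATG, 2 of them the close pair shown above, and only 4 other noncoding transcripts were of like length. *Snhg11* held 1 copy of TGCATG, as did *Rn7sk*, where 8.92% of 3497 transcripts of like length held it. In *Gas5* and *Rmrp* these letters were not found in the transcript searched. A match describes the sequence and is not a binding site.

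**Figure D1:**
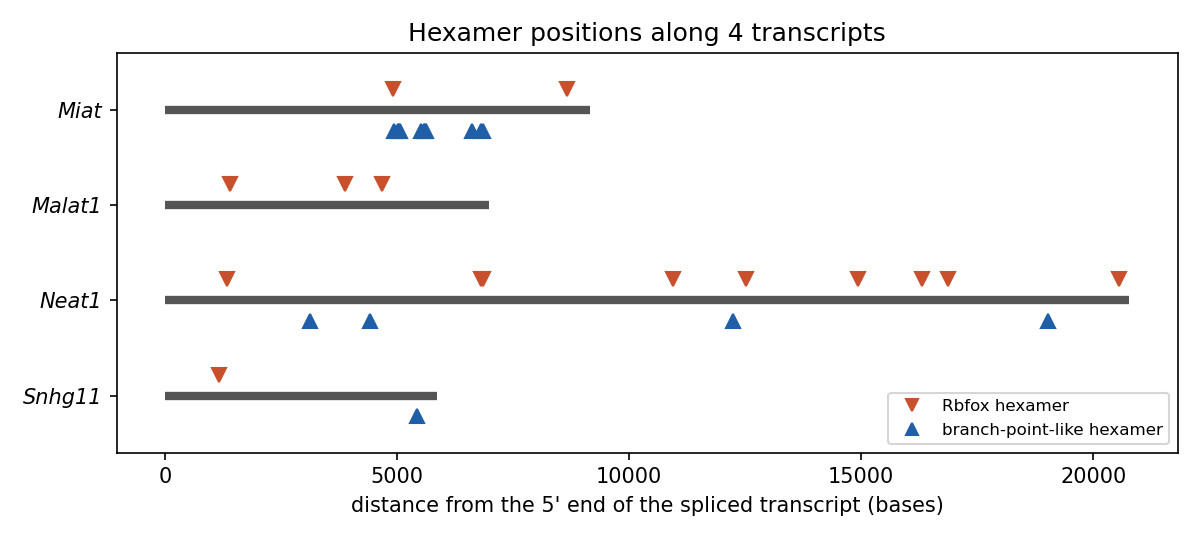
Positions of the Rbfox hexamer (TGCATG, red, above the bar) and of ACTAAC (blue, below the bar) along the spliced transcripts of 4 genes, by distance from the 5′ end in bases. The 11 copies of ACTAAC in *Miat* sit in its second part, *Malat1* has none, and *Neat1* has 9 Rbfox hexamers along its length.

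*Rbfox2* itself checked the labels. Its FPKM was 58.4, 65.0 and 61.3 in control replicates 1, 2 and 3 and 38.1, 36.3 and 34.3 in mutant replicates 1, 2 and 3. The groups did not overlap, and the mutant mean was 58.8% of the control mean (two-sided exact permutation test, p = 0.10, which is as small as 3 samples against 3 allow). All 10 markers of cranial mesenchyme had a mean FPKM over 1 and summed to 417 to 518 FPKM. Markers of neurons summed to 894 to 1136, so nervous tissue was in the dissection as well. The samples also differed apart from genotype. The first replicate of each group stood apart from the other 4 samples on the first principal component, which held 54.7% of the variance. Y-linked genes summed to 57.7 and 55.5 FPKM in mutant replicates 1 and 2 and to at most 0.217 in the other 4 samples. By these values males were found only among the mutants, so sex was not balanced between the groups. The labels name the same run and lane for all 6 samples and no other batch, and the first replicates are shown beside each result.

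*Gas5* had the highest FPKM of these RNAs and *Neat1* the lowest. Recovery in poly(A)+ libraries may differ between them, so this order need not hold in the cell. On the FPKM scale, which allows for gene length, the control means ± SD (n = 3) were 281 ± 16.0 for *Gas5*, 33.7 ± 31.3 for *Miat*, 32.4 ± 26.7 for *Rmrp*, 31.7 ± 16.1 for *Rn7sk*, 18.0 ± 6.96 for *Malat1*, 4.75 ± 3.65 for *Snhg11* and 1.78 ± 1.10 for *Neat1*. In mutants they were 258 ± 9.56, 20.4 ± 18.8, 13.0 ± 3.00, 18.5 ± 2.55, 12.6 ± 4.07, 3.42 ± 4.06 and 1.27 ± 1.14 in the same order of genes. *Gas5* lay above all others and *Snhg11* and *Neat1* below all others in every sample. Among *Miat*, *Rmrp*, *Rn7sk* and *Malat1*, neighbours in this order overlapped within the controls, and *Snhg11* overlapped *Neat1* in both groups. In mutants *Rn7sk* stood above *Rmrp* in every sample. *Gas5* spanned 1.21-fold from its lowest to its highest sample, while *Snhg11* spanned 9.14-fold, *Miat* 7.55-fold, *Rmrp* 6.60-fold, *Neat1* 5.34-fold, *Rn7sk* 3.05-fold and *Malat1* 2.48-fold.

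**Figure D2:**
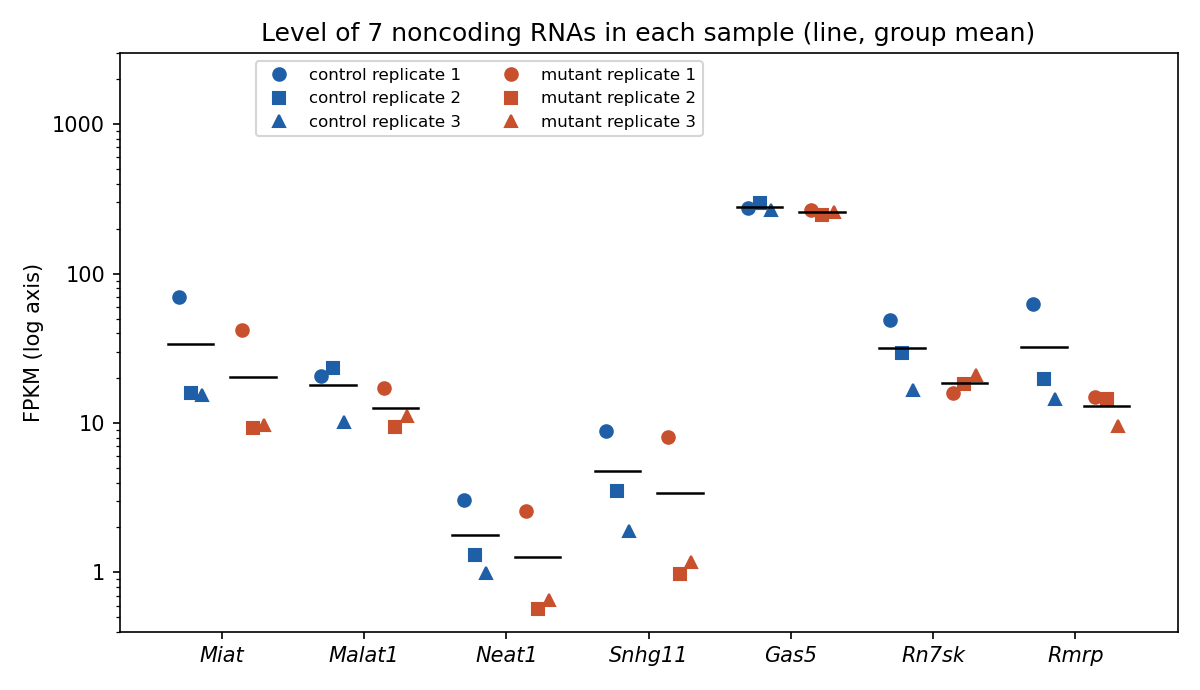
FPKM of 7 noncoding RNAs (log axis) in 3 controls (blue) and 3 mutants (red), with circles, squares and triangles for replicates 1, 2 and 3 and a line at each group mean. *Miat*, *Neat1* and *Snhg11* were highest in the first replicate of both groups, as was *Rmrp*, in mutants only by 15.0 against 14.5, *Rn7sk* was highest in that of the controls and lowest in that of the mutants, and *Gas5* was nearly level.

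*Miat* showed the steadiest difference of the 7 within replicate numbers, and a wide spread within groups. Its FPKM was 69.8, 15.8 and 15.3 in control replicates 1, 2 and 3 and 42.1, 9.24 and 9.77 in mutant replicates 1, 2 and 3. The first replicate was high in both groups, so the groups overlapped, with mutant replicate 1 above control replicates 2 and 3. Within each replicate number the mutant was lower, at 60.3%, 58.3% and 63.8% of the control with the same number. The log2 fold change, on the scale of log2(FPKM + 1) as for all fold changes here, was -0.68 (SE 0.73). With a term for the first replicates the SE was 0.054, and with the replicate number as a block it was 0.059. Without control replicate 1 the log2 fold change was 0.019, and without mutant replicate 1 it was -1.36, since either removal leaves 1 high first replicate in 1 group. It was -1.04 without control replicate 3, and -0.32 and -0.36 without mutant replicates 2 and 3. Between replicates 2 and 3 alone it was -0.66 (SE 0.076).

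*Malat1* and *Neat1*, the RNAs of speckles and paraspeckles, did not separate the groups. *Malat1* FPKM was 20.7, 23.2 and 10.1 in the controls against 17.1, 9.35 and 11.2 in the mutants, in the order of replicates 1 to 3. Control replicates 1 and 2 and mutant replicate 1 were high, and the other 3 samples were low. Its log2 fold change was -0.45 (SE 0.33), and the mutant stood at 82.7%, 40.2% and 111% of the control within replicates 1, 2 and 3. The difference moved with single samples, to -0.24 without control replicate 2, the highest value, -0.27 without mutant replicate 2, -0.68 without mutant replicate 1 and -0.80 without control replicate 3. *Neat1* FPKM was 3.04, 1.30 and 0.988 in the controls against 2.59, 0.569 and 0.651 in the mutants. Both first replicates were above all other samples, and mutant replicate 1 lay above control replicates 2 and 3. *Neat1* did not pass the filter for the fit across genes, an FPKM over 5 in all samples of a group. In a fit with that limit lowered to 0.5, added after the data were seen, its log2 fold change was -0.33 (SE 0.38), and the mutant was lower within each replicate number, at 85.2%, 43.7% and 65.9% of the control. That fold change was -0.025 without control replicate 1, -0.12 and -0.16 without mutant replicates 2 and 3, -0.54 without control replicate 3 and -0.72 without mutant replicate 1.

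Of the snoRNA host genes, *Gas5* hardly varied and *Snhg11* varied most. *Gas5* (chromosome 1, 161034422 to 161038539, plus strand) had an FPKM of 274, 299 and 269 in the controls against 267, 248 and 259 in the mutants. Each mutant value was below each control value, by a narrow margin between control replicate 3 and mutant replicate 1. The mutant mean was 91.9% of the control mean, a log2 fold change of -0.12 (SE 0.086), and of -0.075 without control replicate 2. *Gas5* was the 1 of 7 whose groups did not overlap. Of the 10061 genes tested, 2.37% had every mutant value below every control value. *Snhg11* (chromosome 2, 158375638 to 158386145, plus strand), a host RNA found in neurons, had an FPKM of 8.86, 3.51 and 1.89 in the controls against 8.10, 0.969 and 1.18 in the mutants. As with *Neat1*, both first replicates were above the rest and the filter was not passed. The log2 fold change was -0.57 (SE 0.66) in the fit with the lower limit. It was -0.089 without control replicate 1, -0.18 and -0.25 without mutant replicates 2 and 3, -0.97 without control replicate 3 and -1.28 without mutant replicate 1. The mutant was at 91.5%, 27.6% and 62.5% of the control within replicates 1, 2 and 3. The 9 snoRNA genes inside *Gas5* and 2 inside *Snhg11* that are in the table were listed at 0 in every sample.

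The RNA polymerase III transcripts followed another pattern. *Rn7sk* (chromosome 9, 78175303 to 78175633, minus strand) had an FPKM of 48.7, 29.6 and 16.7 in the controls against 16.0, 18.4 and 21.1 in the mutants. Control replicates 1 and 2 were above all mutants and control replicate 3 was among the mutants. *Rmrp* (chromosome 4, 43492788 to 43493058, minus strand) had an FPKM of 63.0, 19.8 and 14.4 in the controls against 15.0, 14.5 and 9.54 in the mutants. Control replicate 1 alone was far above the other 5, and control replicate 3 lay below mutant replicates 1 and 2. The log2 fold change was -0.63 (SE 0.34) for *Rn7sk* and -0.99 (SE 0.50) for *Rmrp*, the largest of the 7. The values fell in size to -0.26 and -0.38 on leaving out control replicate 1 and grew to -1.01 and -1.41 on leaving out control replicate 3. Between the first replicates the mutant held 32.8% of the control level for *Rn7sk* and 23.8% for *Rmrp*. Within replicates 2 and 3 it held 62.2% and 126% for *Rn7sk* and 73.1% and 66.3% for *Rmrp*. *Rmrp* shares 45.8% of its bases with an exon of *Ccdc107* on the opposite strand. *Ccdc107* ran from 22.7 to 26.6 FPKM over the 6 samples, and whether reads were assigned by strand is not stated.

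**Figure D3:**
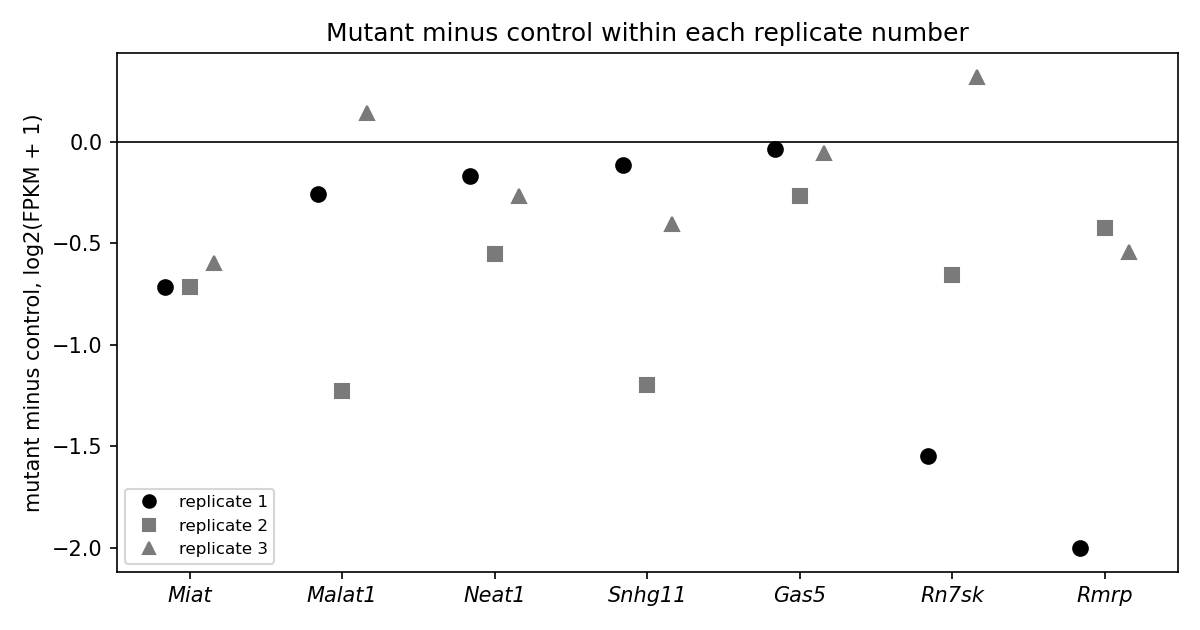
Mutant minus control difference in log2(FPKM + 1) for each of the 7 RNAs within replicates 1 (black circle), 2 (square) and 3 (triangle). *Miat* lay between -0.72 and -0.60 at every number, while *Rn7sk* ranged from -1.55 in replicate 1 to 0.32 in replicate 3 and *Rmrp* from -2.0 in replicate 1 to -0.43 in replicate 2.

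All 7 RNAs had a lower mean in mutants, where 4750 of the 10061 genes tested had a negative log2 fold change. Within replicate numbers, the mutant was lower at all 3 numbers for *Miat*, *Neat1*, *Snhg11*, *Gas5* and *Rmrp*, and at 2 of 3 for *Malat1* and *Rn7sk*. The share of all genes lower at all 3 numbers is not given here. In the limma fit without covariates, 0 of the 5 RNAs that passed the filter had an adjusted p under 0.05, nor had any of the 10061 genes (0%). At an unadjusted p under 0.05 there were 0 of 5, against 167 of all genes tested (1.66%). With a term for the first replicates, *Miat* was the 1 of 5 with an adjusted p under 0.05, beside 0.0298% of all genes. *Miat* and *Rmrp* were the 2 with an unadjusted p under 0.05, beside 6.07% of all genes. Without control replicate 3, *Malat1*, *Rn7sk* and *Rmrp* were 3 of 5 with an unadjusted p under 0.05, beside 1.35% of all genes. The share of all genes with an unadjusted p under 0.05, against which the counts in the lists that follow are read, was 6.0% with the replicate block and 11.0% in replicates 2 and 3 only. It was 6.75%, 0.772% and 1.35% without control replicates 1, 2 and 3, and 4.08%, 1.09% and 1.34% without mutant replicates 1, 2 and 3. These RNAs were chosen with such values in view, so the counts carry no weight as a test.

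The 7 RNAs varied together in part, and the first replicates set most of it. *Miat*, *Neat1* and *Snhg11* were higher in both first replicates than in all other samples, which held for 1 of the 5 RNAs that passed the filter. The same was true of 18.4% of the 10061 genes tested and of 18.3% of the 14591 genes that passed the lower limit. The size of the shift was less common. *Miat* in the first replicate was 4.48-fold the mean of replicates 2 and 3 in the controls against 4.43-fold in mutants, and 0.0199% of the genes tested had a larger log2 shift in each group. *Snhg11* was 3.28-fold and 7.54-fold the later mean, and *Neat1* 2.65-fold and 4.24-fold. *Malat1* was 1.24-fold and 1.67-fold, a shift exceeded by 5.58% of the genes tested in controls and 0.596% in mutants. *Gas5* stayed at 0.967-fold and 1.05-fold. *Rn7sk* was 2.11-fold in controls but 0.811-fold in mutants, and *Rmrp* 3.69-fold and 1.25-fold. In controls 0.318% of genes had a larger shift than *Rn7sk* and 0.0398% than *Rmrp*, and in mutants 82.1% and 6.12%. *Miat*, *Neat1* and *Snhg11* were thus raised in the first replicate of both groups, whereas the polymerase III transcripts were raised mainly in that of the controls. *Malat1* was above the later mean in both first replicates, but its highest control was replicate 2. With the first replicates set apart as a cluster, no correlation over the 6 samples is given.

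Other cell types and RNA classes moved with the first replicates to different degrees. The 12 neuronal markers, all detected, summed to 962, 894 and 932 FPKM in the controls against 1048, 1136 and 1087 in the mutants, in the order of replicates 1 to 3, which was 1.05-fold and 0.944-fold the later mean in the first replicates. *Miat* and *Snhg11*, RNAs known from neurons, were 3.28-fold to 7.54-fold the later mean in the same samples. Of 8 retinal markers 6 had a mean FPKM over 1, with *Crx* near 0, and they summed to 14.8 to 22.4, at 1.28-fold and 1.35-fold in the first replicates. Markers of choroid plexus and otic epithelium, 4 of 6 with a mean FPKM over 1, summed to 80.0, 16.6 and 14.1 in controls and to 67.1, 97.8 and 48.2 in the mutants. Their high samples were control replicate 1 and every mutant, unlike *Miat*. The lists for neural progenitors, cranial nerve glia, endothelium, epithelium, cranial mesenchyme, skeletal muscle and erythroid cells ran from 0.454-fold (muscle, controls) to 1.96-fold (erythroid cells, controls). Mitochondrially encoded genes were 1.51-fold and 1.35-fold the later mean in the first replicates. Other RNAs made without a poly(A) tail summed to 45.8, 23.4 and 20.3 in the controls against 13.3, 23.5 and 25.7 in the mutants, highest in control replicate 1 and lowest in mutant replicate 1, as *Rn7sk* was. Only 4 of these 21 RNAs had a mean FPKM over 1, and neither of the 2 that passed the filter showed this order by itself. Their part in the values of the 7 RNAs was not tested.

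**Figure D4:**
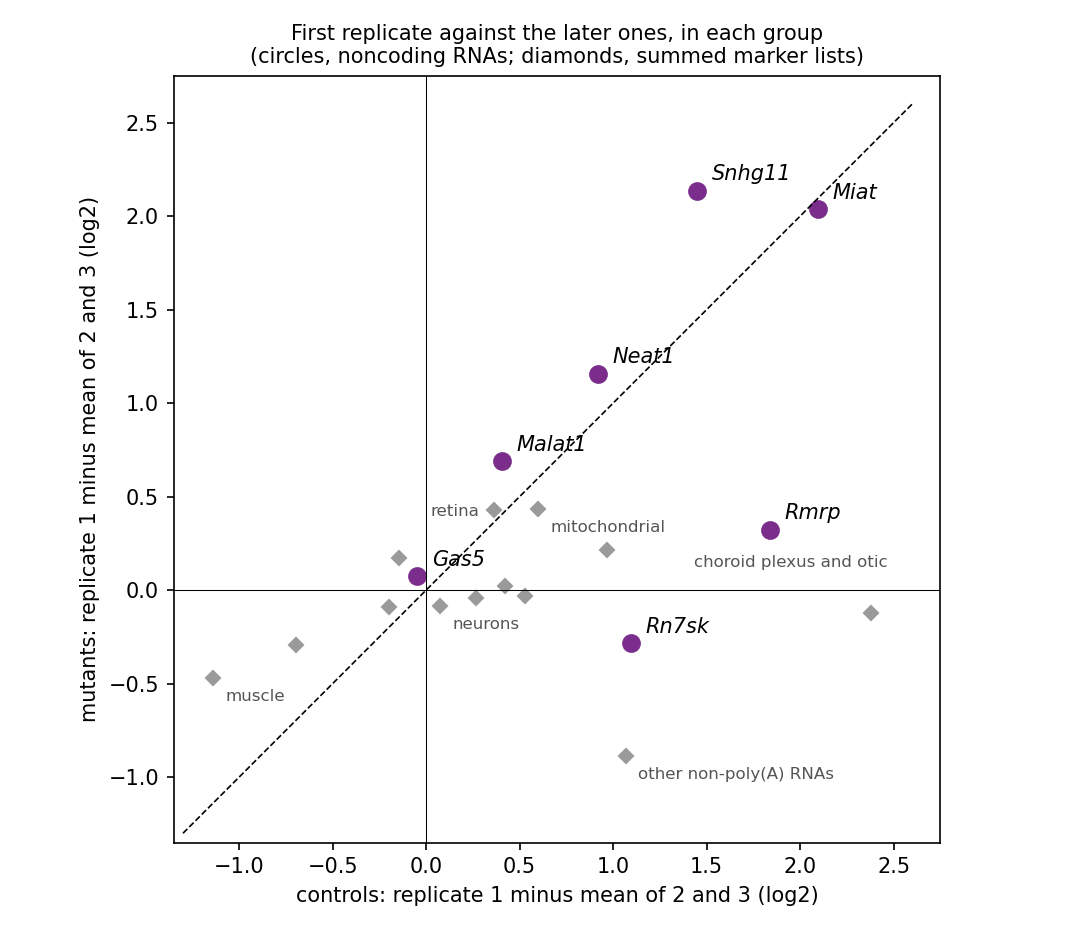
Difference between replicate 1 and replicates 2 and 3 in controls (horizontal) and mutants (vertical), in log2(FPKM + 1) for the 7 RNAs (purple circles) and as the log2 ratio of summed FPKM for marker lists (grey diamonds). The dashed line marks equal shifts. *Miat* lies on it at 2.09 and 2.04, *Gas5* near the origin, and *Rmrp* and *Rn7sk* well below it.

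The gene whose levels over the 6 samples were most like those of *Miat* was its neighbour on the opposite strand. Likeness was the root mean square difference of log2(FPKM + 1), each gene centred on its mean, over 6 samples and 10060 genes. The nearest, at 0.14, was *Gm26953* (named RP24-317K11.2 in the table, chromosome 5, 112215461 to 112233720, plus strand), which overlaps *Miat* on the opposite strand. The 2 genes share 2260 exon bases, 24.3% of those of *Miat*. *Gm26953* had an FPKM of 31.7, 6.18 and 5.65 in the controls against 18.3, 2.96 and 4.67 in the mutants, between 32.0% and 47.8% of *Miat* in each sample. The kit marks strand, but whether reads were counted by strand is not stated, so reads from the shared bases may count for either gene. Next were *AI480526* and *Gm12940*, both annotated as noncoding, then *Ncrna00085* and *Gm16586*, at 0.26 to 0.41. *AI480526* had an FPKM of 35.2, 14.8 and 10.7 in the controls against 26.9, 6.08 and 6.001 in the mutants, high in both first replicates as *Miat* was.

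**Figure D5:**
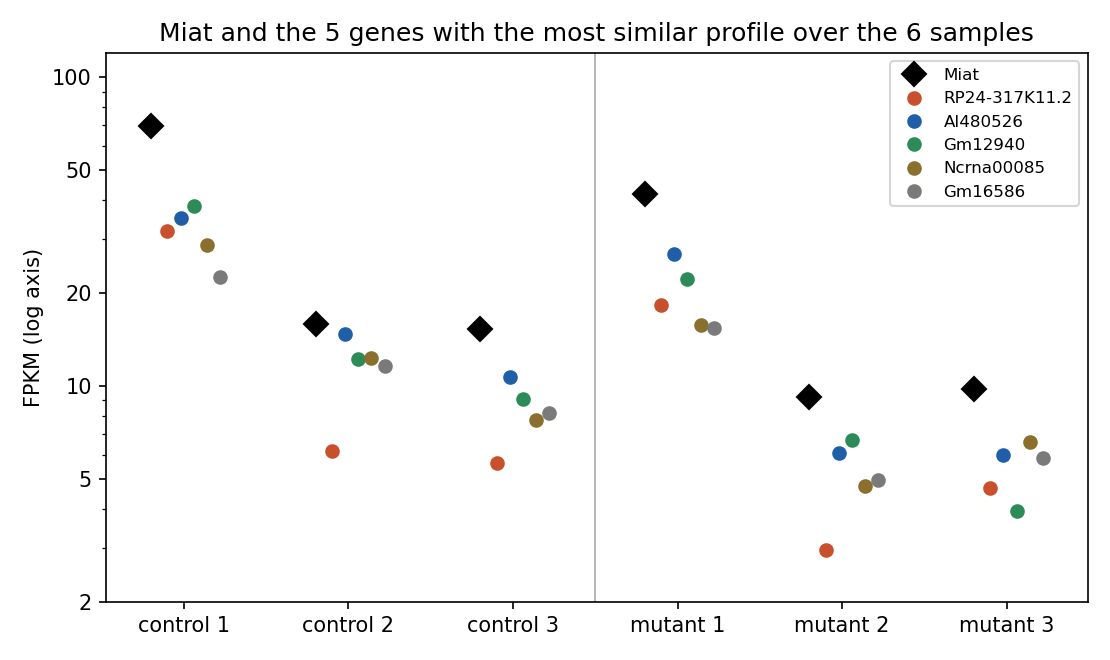
FPKM (log axis) of *Miat* (black diamonds) and of the 5 genes with the most similar levels over the 6 samples (coloured circles), by sample. All 6 genes were highest in control replicate 1 and next highest in mutant replicate 1.

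Nearest to *Malat1* were *2810008D09Rik*, *Tle2*, *D4Wsu53e*, *6720401G13Rik* and *Il11ra1*, at 0.17 to 0.21. GENCODE names *2810008D09Rik* as the host gene *Snhg20*, *D4Wsu53e* as *Rsrp1* and *6720401G13Rik* as *Firre*, a nuclear long noncoding RNA of the X chromosome. *Firre* had an FPKM of 11.1, 13.7 and 7.70 in the controls against 10.02, 6.84 and 6.46 in the mutants, high in the same 3 samples as *Malat1*. Nearest to *Neat1* were *Ankrd16*, *Dynlt1c*, *Adnp*, *Leng8* and *Wsb1*, at 0.092 to 0.14. *Wsb1* had an FPKM of 143, 107 and 72.7 in the controls against 123, 57.5 and 62.3 in the mutants, where both first replicates were the highest. These genes were picked by likeness among all genes tested, so the likeness is a description.

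Noncoding genes as a class were split in direction. Those past the unadjusted threshold were more often lower than higher, as were those among all genes tested. Of 4094 other genes annotated as long noncoding, 167 passed the filter, 76 higher and 91 lower in mutants, with a median log2 fold change of -0.025 against 0.0057 for all genes tested. An unadjusted p under 0.05 was reached by 2 higher and 6 lower, 8 of 167 beside 1.66% of all genes tested, and an adjusted p under 0.05 by 0. With a term for the first replicates there were 6 higher and 19 lower, beside 6.07% of all genes, and with the replicate block 6 higher and 20 lower, beside 6.0%. In replicates 2 and 3 only there were 12 higher and 26 lower, beside 11.0%. Of all genes tested, 71 were higher and 96 lower past that threshold in the fit without covariates. There were 263 and 348 with the term for the first replicates, 232 and 372 with the block, and 541 and 589 in replicates 2 and 3 only. Leaving out control replicate 1, 2 or 3 gave 18, 7 and 13, and leaving out mutant replicate 1, 2 or 3 gave 19, 6 and 13. The 5 with the smallest p were *Gm16136*, *Xist*, *Mirg*, *2500004C02Rik* and *1700011J10Rik*. *Gm16136*, an antisense gene, had an FPKM of 5.90, 6.68 and 6.53 in the controls against 4.47, 4.10 and 3.79 in the mutants. Its groups did not overlap, at a log2 fold change of -0.53 (SE 0.091, unadjusted p = 0.00064, adjusted p = 1.0 from limma). *Xist*, which coats the inactive X chromosome in females, was at 98.8, 116 and 73.7 in the controls against 0.383, 0.330 and 52.7 in the mutants. The 2 low samples are those with Y-linked expression. *Mirg*, an imprinted RNA, was at 16.8, 19.1 and 15.1 in the controls against 14.3, 8.85 and 11.6 in the mutants, a log2 fold change of -0.53 (SE 0.17, unadjusted p = 0.015, adjusted p = 1.0 from limma).

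Of 31 well-known long noncoding RNAs in the table, listed with earlier results known, 14 passed the filter, 3 higher and 11 lower in mutants, with a median of -0.089. The 2 of 14 with an unadjusted p under 0.05, both lower, were *Xist* and *Mirg*, beside 1.66% of all genes tested. With a term for the first replicates there were 3, all lower, beside 6.07%. There were 6 with the replicate block, all lower, beside 6.0%, and 6 in replicates 2 and 3 only, 1 of them higher, beside 11.0%. There was 1 without control replicate 2, and there were 4 or 5 without control replicate 1 or 3 or mutant replicate 1. The most abundant were *H19*, an imprinted fetal RNA, at 1802 ± 455 FPKM in the controls against 1619 ± 116 in the mutants (SD, n = 3), and *Rian*, at 399 ± 47.2 and 343 ± 64.8. Their groups overlapped.

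Most of the other snoRNA host genes tested were, like *Gas5*, slightly lower in mutants. With earlier results known, 18 hosts were listed, and 11 matched a gene in the table by name. Of these, 10 passed the filter, 9 lower and 1 higher in mutants, where 4750 of all 10061 genes were lower. Their median log2 fold change was -0.17 against 0.0057 for all genes tested. The counts in this list carry no weight as a test. For 3 of 10 every mutant value was below every control value, against 2.37% of all genes tested. The most abundant were *Zfas1* (1500012F01Rik in the table) and *Snhg6*. *Zfas1* had an FPKM of 63.8, 60.7 and 57.3 in the controls against 52.4, 50.1 and 56.1 in the mutants, and all mutants were below all controls. Its log2 fold change was -0.20 (SE 0.081, unadjusted p = 0.046, adjusted p = 1.0 from limma), the 1 of 10 with an unadjusted p under 0.05, beside 1.66% of all genes. *Snhg6* had an FPKM of 60.1, 54.7 and 52.6 in the controls against 53.1, 44.0 and 49.3 in the mutants. Mutant replicate 1 lay above control replicate 3. With a term for the first replicates, 5 of 10 had an unadjusted p under 0.05, against 6.07% of all genes, and with the replicate block 3 of 10, against 6.0%. Without that term or a block, leaving out 1 sample gave 0 to 2 of 10, with 0 without control replicate 2 or mutant replicate 2. With the term for the first replicates, 0 of 10 had an adjusted p under 0.05.

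The mRNAs of the protein partners of these RNAs had median differences near 0 between the groups, and the proteins were not measured. Of 12 paraspeckle proteins, which build on *Neat1*, 8 were higher and 4 lower in mutants, with a median of 0.054. *Hnrnpk*, the most abundant, had a log2 fold change of 0.055 (SE 0.20). Of 12 nuclear speckle proteins, which share bodies with *Malat1*, 5 were higher and 7 lower, with a median of -0.049. *Srsf3* and *Ddx39b*, a splicing factor and an export helicase, had 0.045 (SE 0.10) and -0.032 (SE 0.078). The 10 genes of the 7SK complex and P-TEFb split 6 and 4, with a median of 0.018, and *Hnrnpa1*, which binds free 7SK, and *Hnrnpa2b1* had 0.063 (SE 0.13) and 0.022 (SE 0.17). The 10 tested proteins of RNase MRP and RNase P split 6 and 4 as well, with a median of 0.025, and *Pop4* and *Rpp25l* had 0.051 (SE 0.12) and 0.028 (SE 0.078). The 3 proteins known to bind *Miat*, namely *Sf1*, *Qk* and *Celf3*, had 0.010 (SE 0.084), 0.036 (SE 0.13) and 0.18 (SE 0.18). None of these genes had an unadjusted p under 0.05 in limma without covariates, and their log2 fold changes ran from -0.26 to 0.35. With a term for the first replicates 1 paraspeckle and 1 speckle gene had, both lower, beside 6.07% of all genes. In replicates 2 and 3 only there were 2 speckle genes, 1 of them higher, beside 11.0%. There were also 2 of the 7SK list and 1 of the RNase list, all lower, and 1 of the *Miat*-binding list, higher. The 8 tested factors of nonsense-mediated decay, which destroys spliced host RNAs such as *Gas5*, split 3 and 5, with a median of -0.011. Past the unadjusted threshold there were 0 without covariates and 1, lower, in replicates 2 and 3 only. *Smg5* and *Upf3a*, the most abundant, had 0.047 (SE 0.077) and 0.083 (SE 0.17).

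Messenger RNAs that are known to be held in the nucleus with retained introns were lower in mutants in 11 of 11, with a median log2 fold change of -0.18. Of all 10061 genes tested, 4750 were lower. The list was chosen with earlier results of these data known, and the paper had already reported some of its genes as changed, *Ccnl2* among them. The count therefore carries no weight as a test. They included kinases and cyclins that act on splicing factors. *Ccnl2* had an FPKM of 51.7, 47.2 and 37.1 in the controls against 39.8, 29.9 and 32.6 in the mutants. Mutant replicate 1 exceeded control replicate 3, and the log2 fold change was -0.40 (SE 0.15, unadjusted p = 0.033, adjusted p = 1.0 from limma), the 1 of 11 with an unadjusted p under 0.05, beside 1.66% of all genes. *Ddx5* and *Rbm39*, the most abundant, had -0.012 (SE 0.11) and -0.078 (SE 0.10). Both first replicates were above all other samples for 5 of 11, as for *Neat1*, against 18.4% of all genes tested. An unadjusted p under 0.05 was reached by 4 of 11 with a term for the first replicates, by 4 with the replicate block and by 4 in replicates 2 and 3 only, beside 6.07%, 6.0% and 11.0% of all genes. Without a term or block there were 3 without mutant replicate 1, 1 without control replicate 3, and 0 without control replicate 1 or 2 or mutant replicate 2 or 3.

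RNAs that lack a long poly(A) tail, or carry a short one, did not move as 1 class. Besides *Rn7sk* and *Rmrp*, 2 of 21 such RNAs passed the filter. *Rpph1*, the RNA of RNase P and the closest relative of *Rmrp*, had an FPKM of 8.99, 8.74 and 7.28 in the controls against 2.77, 12.1 and 3.40 in the mutants. Mutant replicate 2 was the highest of all, so the groups overlapped, at a log2 fold change of -0.63 (SE 0.43). *Snora73b* had 19.3, 6.10 and 8.18 in the controls against 3.24, 1.49 and 16.2 in the mutants, again highest in control replicate 1. Of 70 replication-dependent histone genes, whose mRNAs end in a stem loop, only 7 passed the filter. These 7 went the other way, all higher in mutants with a median of 0.12, where 5311 of all 10061 genes were higher. The rest were too low for the filter and were not compared, so the 7 need not stand for the class. *Hist1h1c* was the 1 of 7 with an unadjusted p under 0.05, at a log2 fold change of 0.25 (SE 0.095), beside 1.66% of all genes. There were 2 past it without control replicate 1 and in replicates 2 and 3 only, and 0 without control replicate 2 or 3 or mutant replicate 1 or 2. The most abundant, *Hist3h2ba*, was at 98.2, 61.1 and 70.2 in the controls against 92.8, 91.1 and 82.3 in the mutants, lowest in control replicate 2 and highest in control replicate 1. Of 37 mitochondrially encoded genes 14 passed the filter, all lower in mutants, with a median of -0.50, where 4750 of all 10061 genes were lower. These genes need not vary independently, so such counts carry no weight as a test. The 2 of 14 with an unadjusted p under 0.05 were *mt-Rnr2* and *mt-Rnr1*, beside 1.66% of all genes. There were 5 with a term for the first replicates, beside 6.07%, and 10 with the replicate block, beside 6.0%. There was 1 without control replicate 1 or control replicate 2, and there were 0 without mutant replicate 2. The sum of mitochondrial FPKM was 47615, 31542 and 31359 in the controls against 36092, 20706 and 32687 in the mutants. It was highest in control replicate 1, as *Miat*, *Neat1*, *Snhg11*, *Rmrp* and *Rn7sk* were. Mutant replicate 1 was next, as for *Miat*, whereas *Rn7sk* was lowest there. Within replicate 3 the sum was higher in the mutant.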

How the data were processed

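Poly(A)+ stranded libraries (TruSeq Stranded mRNA) of the 6 samples were sequenced as paired ends. Per the submitters' notes reads were checked with FastQC 0.11.4, aligned with STAR to GRCm38 and passed to Cuffdiff. The annotation release, the strand setting and the step that made the gene table are not given in the sources used here. The authors deposited FPKM values for 38553 genes, in single-sample tables and in 1 table of all samples that held the same values (0 differences), and 95.3% of the identifiers were found in GENCODE M21. Depth per gene is unknown. The 7 RNAs and all gene lists were chosen with earlier results of these data known.

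The 10061 genes that exceeded an FPKM of 5 in every sample of either group were compared on log2(FPKM + 1), pseudocount 1. The test was limma-trend (limma 3.58.1, R 4.3.3) without covariates, with Benjamini-Hochberg adjustment over all genes tested. The fit was tested on simulated data. Genes named are the 7 RNAs, *Rbfox2*, in each list the 2 most abundant genes and up to 3 with the smallest unadjusted p under 0.05, the 5 other noncoding genes with the smallest p, and the 5 genes nearest in profile to *Miat*, *Malat1* and *Neat1*. Of the genes this rule names, 1 is not reported here. Each p-value from limma sets the difference between group means against the spread between these samples, which is pooled in part across genes. Deviations from the group means correlated across genes at 0.64, 0.26 and 0.51 between samples of the same replicate number and at -0.68 to 0.40 between samples of different numbers, so that 0.26 is below the highest of the latter. Since each was over 0.1, the numbers were taken to pair the samples. With both first replicates apart, later replicates can correlate however they are numbered. The values therefore do not settle how replicates 2 and 3 pair. The pairing comes from these values alone, since the labels do not tie numbers to litters or days. Alternatives were a pseudocount of 0.1, median ratio and quantile scaling, the replicate block, other filters, no trend, a Y-linked covariate, a term for the first replicates, replicates 2 and 3 only, and each sample left out. Transcripts were the longest of each gene in GENCODE M21 that is not a retained intron or a decay target.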

Additional observations from a re-analysis of the deposited data

How the results depend on the processing

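*Miat* kept a negative log2 fold change under every alternative except leaving out control replicate 1. Leaving out mutant replicate 1 gave -1.36, the lowest value, and leaving out control replicate 1 gave 0.019, the highest. Its adjusted p was under 0.05 only with a term for the first replicates, at -0.68 with an adjusted p of 0.029 from limma, and ran up to 1.0 over the alternatives. With the replicate number as a block it was 0.085, and the block changed no adjusted call. *Rbfox2* passed the adjusted threshold with that term, at -0.75, and in replicates 2 and 3 only, at -0.82. The count of genes with an adjusted p under 0.05 in limma was 0, and was 3 with the term for the first replicates, 4 in replicates 2 and 3 only, and 0 to 5 with a sample left out, the 5 without mutant replicate 3. The count at an unadjusted p under 0.05 was 167, and was 604 with the replicate block, 611 with the term, 1130 in replicates 2 and 3 only, 304 with an FPKM filter of 1, 339 with a filter of 0.5 (added after seeing the data), 663 with no filter, and 78 to 690 with a sample left out. The cause was not tested. Over all values recomputed, 227 stayed on the same side, 67 moved, all of them counts, 3 passed the threshold anew and 1 changed sign. *Malat1* and *Rn7sk* changed direction between replicate numbers. With the Y-linked covariate the log2 fold change was -1.34 (SE 1.07) for *Miat*, -0.57 (SE 0.50) for *Malat1* and -0.12 (SE 0.14) for *Gas5*. It was -0.44 (SE 0.51) for *Rn7sk* and -1.37 (SE 0.73) for *Rmrp*. At the lower limit it was -0.69 for *Neat1* and -1.23 for *Snhg11*. The values hold no read counts, so what depth limits, above all for *Neat1* at an FPKM near 1, is not known.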

Other observations

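Among the well-known long noncoding RNAs listed, 3 that the rule for naming left out are described here, picked with their values known. *Mir124a-1hg* (mmu-mir-3078 in the table), the host gene of the neuronal miR-124, did not pass the filter and had an FPKM of 13.4, 3.13 and 3.26 in the controls against 8.78, 1.90 and 1.66 in the mutants, with both first replicates above the rest and the mutant below the control at each replicate number, as for *Miat*. *Meg3*, an imprinted RNA from the same cluster as *Rian* and *Mirg*, passed the filter and had 212, 167 and 87.6 in the controls against 163, 49.97 and 51.97 in the mutants. Its high samples were control replicates 1 and 2 and mutant replicate 1, the same 3 as for *Malat1*. *Tug1*, a ubiquitous long noncoding RNA that passed the filter as well, stayed at 65.9 to 72.5 FPKM in all samples.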
